A study of Mus musculus with 8 samples.

Results

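The transcription factors AP-1 and BATF were followed in tumor-associated macrophages (TAMs) with and without the microRNA miR-21. The 10 genes Fos, Fosb, Fosl2, Jun, Junb, Jund, Atf3, Batf, Batf2 and Batf3 were chosen by symbol among the 53247 genes of the RNA-Seq table, and all 10 were found and lay above the filter on low values. The mice were C57/BL6, given as 10 weeks old, and carried LLC cells, a line of Lewis lung carcinoma of the mouse, under the skin for 14 days before TAMs were sorted by flow cytometry for F4/80, MHC II, CD11b and CD45. The 8 libraries were 4 WT and 4 miR-21-/-, labelled as biological replicates 1 to 4. The deletion was carried by the host mouse in all its cells and not in macrophages alone, and both groups received LLC cells and no other treatment. Whether each library was 1 mouse is not given in the sources used here, and miR-21-/- replicate 1 carries 2 sample numbers in its title.

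AP-1 is a pair of basic leucine zipper (bZIP) proteins, usually a FOS protein with a JUN protein, that binds DNA at short palindromes. FOS proteins need a JUN partner to bind, whereas JUN proteins can also pair with each other. Many of these genes are immediate-early genes: they are transcribed within minutes of a stimulus by way of MAP kinases, and their mRNAs are short-lived. ATF3 is a stress-induced bZIP factor, and BATF proteins pair with JUN proteins and, together with interferon regulatory factors (IRFs), bind composite sites in immune genes.

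Values are CPM, read counts scaled to the size of the library, with the mean ± SD over 4 libraries. Differences are log2 fold changes of miR-21-/- over WT on the log2(CPM + 1) scale, with a standard error (SE) and a Benjamini-Hochberg adjusted p from limma over all 13850 genes tested. A gene passed the threshold at an adjusted p of 0.005 or less with a fold change over 1.5. The depth of a library, inferred by taking its most frequent low value as 1 read, was about 20200000 to 33400000 reads. At that depth the member with the fewest reads had about 111 to 288 reads in each library. The 10 macrophage markers, with Lyz2 the most abundant, summed to 11900 to 13340 CPM in WT TAMs and 12760 to 15430 CPM in miR-21-/- TAMs. Of these 4 had a positive and 6 a negative log2 fold change: Fcgr1 passed as higher, and Adgre1, which encodes F4/80 (564 ± 19.4 and 433 ± 27.5 CPM, WT first), and Csf1r (1310.5 ± 160 and 939 ± 79.1 CPM) were lower without overlap and under the threshold. Mir21a was at 0.0001 CPM, the lowest value in the table, in all 8 libraries, so that the deletion could not be checked from it. In bulk RNA, fewer cells of a type and less RNA per cell cannot be told apart.

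The sequence deleted in miR-21-/- mice includes the mature miRNA below, and it is shown because its seed, bases 2 to 8 in capitals, sets which mRNAs it can pair with. It lies at chr11:86584120-86584141 on the minus strand (RefSeq, GRCm38.p6) and is 22 bases long.
miR-21a-5p: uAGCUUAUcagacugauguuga
The 7 bases that pair with the seed are ATAAGCT, and the 8-base site adds an A after them. Neither of them, nor the 6 bases TAAGCT within them, was found in the longest annotated 3′ UTR of any of the 10 members. These 3′ UTRs were 310 (Batf3) to 4653 (Fosl2) bases long. Other matches of 6 bases were not searched. Among 11480 tested genes with an annotated 3′ UTR, of median length 1360 bases, 2.31% held the 8-base site. A site of 7 or 8 bases was held by 8.16%, and the letters TAAGCT by 27.5%. This says only that these letters are not in these 3′ UTRs.

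Fos, Fosb and Jun varied together across the libraries, and the bases just before their transcription start are shown for that reason. Each run goes 5′ to 3′ along the gene from base 120 to base 11 before the start (RefSeq, GRCm38.p6), and the capitals mark the letters TGACG, or TGACATCA in Jun, that a search on both strands found. The Fos run is at chr12:85473770-85473879 on the plus strand, the Fosb run at chr7:19310056-19310165 on the minus strand and the Jun run at chr4:95052233-95052342 on the minus strand.
Fos: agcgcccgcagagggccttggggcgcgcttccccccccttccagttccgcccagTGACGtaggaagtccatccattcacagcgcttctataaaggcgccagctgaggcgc
Fosb: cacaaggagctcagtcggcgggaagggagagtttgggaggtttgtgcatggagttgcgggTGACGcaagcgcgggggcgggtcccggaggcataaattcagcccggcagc
Jun: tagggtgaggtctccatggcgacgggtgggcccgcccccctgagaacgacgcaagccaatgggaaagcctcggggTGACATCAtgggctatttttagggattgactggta
The letters TGACG, searched on both strands, are part of the cyclic AMP response element TGACGTCA. Over the 250 bases before the start they were found in 5 of the 9 members with a promoter in the table: at 129 and 66 bases before the start in Fos, 60 in Fosb, 106 in Junb, 98 in Batf and, on the other strand, 7 in Atf3. Of 32851 promoters of this length, 17.8% hold them. The letters TGACATCA were found in Jun, 45 bases before the start, and in 2.93% of all promoters. The whole element TGACGTCA (1.55% of all promoters) and the AP-1 site TGACTCA (4.46%), searched on both strands, were in none of the 9 windows. The RefSeq start of these windows is not always where the table's gene begins: it was at the same base for Fos and Jun, 6 to 51 bases away for Fosb, Junb and Batf, 567 and 671 bases inside the gene for Batf3 and Fosl2, 1210 bases upstream for Jund and 34706 bases inside for Atf3. For Batf2 no promoter was used here. A match is a description of letters and was not tested for binding.

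Of the 10 members, 1 passed the threshold, and it was higher in miR-21-/- TAMs: Batf2, at 3.87 times the WT mean. Over all genes tested 7.12% passed, 2.89% as higher and 4.23% as lower. By limma 0 of the 10 members passed as lower, and 5 were lower at an unadjusted p under 0.05, against 34.1% of all genes. With an adjusted p of 0.05 or less and no fold limit, which 36% of all genes met, the count was 6 of 10: Batf2 was higher (9.49% of all genes were) and Fos, Fosb, Jun, Jund and Batf were lower (26.5% of all genes were). The groups did not overlap for 3 members, Jund, Batf and Batf2, against 35.1% of all genes. The median log2 fold change was -0.33 over the members and -0.10 over all genes tested. Rescaling the libraries by their median of ratios moved the median of all genes to 0.0015. With that rescaling the log2 fold changes were -0.40 for Fos, -0.84 for Fosb, -0.37 for Jun, -0.35 for Jund, -0.25 for Batf and 1.98 for Batf2.

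**Figure D1:**
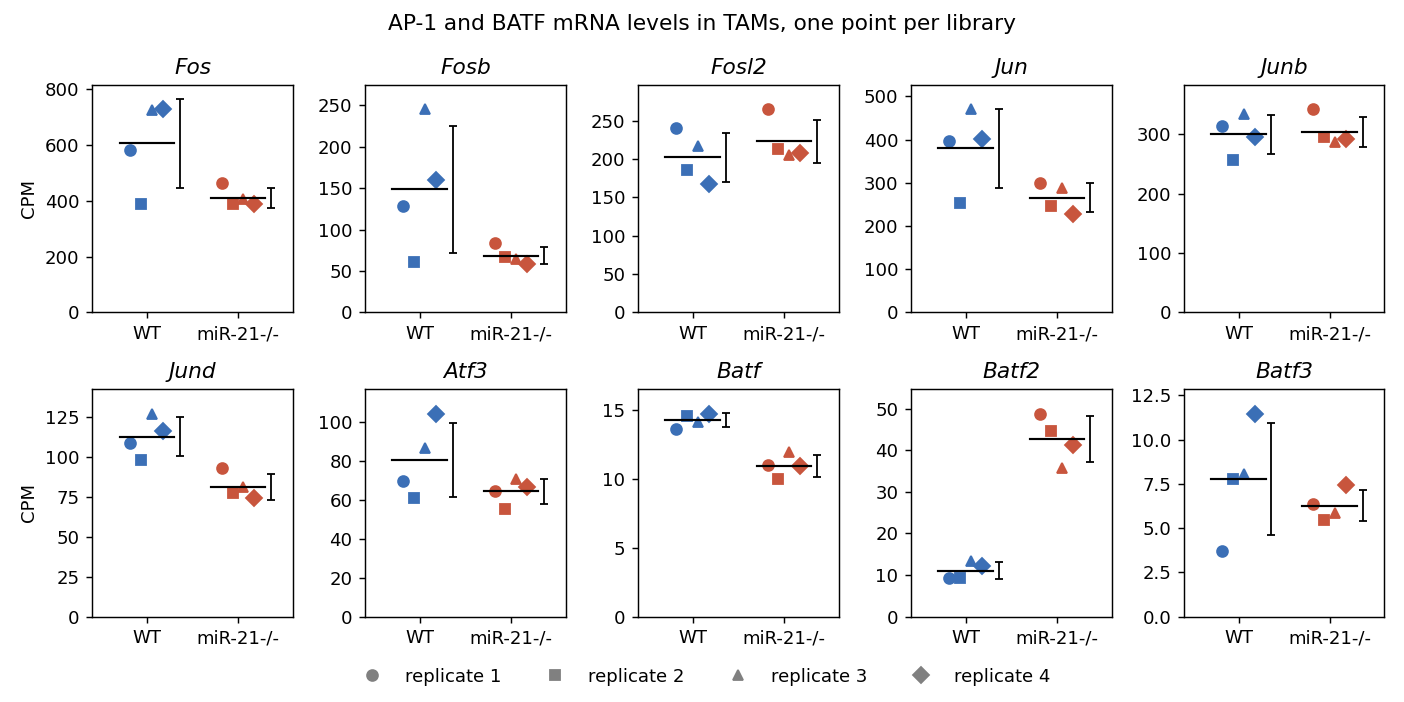
CPM (linear axis from 0) of the 10 members in each library, WT in blue and miR-21-/- in red, with the marker shape giving the replicate number, a line at the mean of 4 libraries and a bar of 1 SD beside it. The Batf2 libraries separate by genotype (9.19 to 13.4 against 35.8 to 48.9 CPM), and WT replicate 2 (square) lies with the miR-21-/- libraries for Fos, Fosb and Jun.

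Among the FOS genes, Fos and Fosb had lower means in miR-21-/- TAMs, but 1 WT library lay within the miR-21-/- range for each, and neither passed the threshold. Fos (chr12:85473890-85477273, plus strand), the partner of JUN in the classical AP-1 dimer, was at 582, 389, 725 and 727 CPM in WT replicates 1 to 4 and at 462, 388, 405 and 387 CPM in miR-21-/- replicates 1 to 4. WT replicates 1, 3 and 4 were above every miR-21-/- library, and WT replicate 2 lay within the miR-21-/- range. The means were 606 ± 160 and 410 ± 35.2 CPM (SD over 4 libraries each). The log2 fold change was -0.52 (SE 0.18, 95% interval -0.91 to -0.13, adjusted p = 0.0418 by limma).

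Fosb (chr7:19302696-19310051, minus strand), a close relative of Fos that is induced with it, was at 128, 60.8, 245 and 160 CPM in WT replicates 1 to 4. In miR-21-/- TAMs it was at 83.2, 66.4, 64.5 and 58.9 CPM. Again WT replicate 2 lay inside the miR-21-/- range while the other 3 WT libraries were above it, and the highest WT library was 4.03 times the lowest. The means were 148 ± 76.5 and 68.3 ± 10.5 CPM, a log2 fold change of -0.96 (SE 0.33, 95% interval -1.70 to -0.22, limma adjusted p = 0.0470).

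Fosl2, which encodes the FOS-related protein FRA-2 and is induced more slowly, did not follow them. It lies at chr5:32135801-32157842 on the plus strand and was at 240, 185, 216 and 167 CPM in WT TAMs and at 265, 214, 206 and 208 CPM in miR-21-/- TAMs. The groups overlapped, with a log2 fold change of 0.15 (SE 0.12, 95% interval -0.12 to 0.41, limma adjusted p = 0.362). Both ends of that interval lie inside the fold limit of 1.5.

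Among the JUN genes the 3 members differed in pattern. Jun (chr4:95049034-95052222, minus strand), the classical partner of FOS, was at 397, 253, 470 and 402 CPM in WT TAMs and at 300, 246, 288 and 229 CPM in miR-21-/- TAMs. As for Fos, WT replicate 2 was the exception, lying below 2 miR-21-/- libraries, and the other WT libraries were above all 4. The log2 fold change was -0.49 (SE 0.17, 95% interval -0.87 to -0.11, limma adjusted p = 0.0462), which did not pass. Jun shares its locus with the antisense gene Junos, whose mean was 3.39 ± 1.17 CPM in WT TAMs and 8.07 ± 2.15 CPM in miR-21-/- TAMs, and the strand used in counting is not given in the sources used here.

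Jund (chr8:70698949-70700616, plus strand), the JUN gene that most cells transcribe without a stimulus, was at 109, 98.4, 127 and 116 CPM in WT TAMs and at 93.1, 77.8, 81.2 and 74.2 CPM in miR-21-/- TAMs. Every miR-21-/- library was below every WT library. The means were 113 ± 12.2 and 81.6 ± 8.18 CPM, and the log2 fold change of -0.46 (SE 0.090, 95% interval -0.66 to -0.26) had an adjusted p of 0.00355 by limma but stayed under the fold limit of 1.5.

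Junb (chr8:84974484-84978718, minus strand), an immediate-early gene whose protein often restrains JUN, was at 314, 257, 334 and 295 CPM in WT TAMs and at 342, 296, 286 and 292 CPM in miR-21-/- TAMs. The ranges overlapped, with WT replicate 2 below every miR-21-/- library and miR-21-/- replicate 1 above every WT library, and the 95% interval of its log2 fold change, -0.17 to 0.22 (limma adjusted p = 0.858), lies inside the fold limit of 1.5 in both directions. Its exons share a locus with Prdx2 on the opposite strand, which was at 58.1 ± 4.78 CPM in WT TAMs and 49.4 ± 3.87 CPM in miR-21-/- TAMs.

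Atf3, the stress-induced member (chr1:191170296-191218039, minus strand), was at 69.8, 61.1, 86.7 and 104 CPM in WT TAMs and at 64.4, 55.3, 70.7 and 66.6 CPM in miR-21-/- TAMs. The groups overlapped, with WT replicates 3 and 4 above all miR-21-/- libraries. The log2 fold change was -0.30 (SE 0.15, 95% interval -0.62 to 0.031, limma adjusted p = 0.141).

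The BATF genes went in different directions. Batf2 (chr19:6140983-6172476, plus strand), an interferon-induced member that pairs with JUN proteins and with IRF1 in activated macrophages, was at 9.19, 9.38, 13.4 and 12.1 CPM in WT TAMs. In miR-21-/- TAMs it was at 48.9, 44.7, 35.8 and 41.3 CPM. The lowest miR-21-/- library was above the highest WT library by more than the whole range of either group. The means were 11.0 ± 2.06 and 42.7 ± 5.55 CPM (n = 4 each), and the log2 fold change was 1.87 (SE 0.13, 95% interval 1.58 to 2.16, limma adjusted p = 1.39e-05). Batf2 passed the threshold in all 18 fits made, those without any one library included, with log2 fold changes between 1.32 and 1.98. Its locus overlaps Arl2 on the opposite strand (12.0 ± 1.40 against 9.83 ± 0.192 CPM, WT first) and a pseudogene on its own strand, Gm5510 (3.55 ± 0.649 and 3.59 ± 0.296 CPM), neither of which had a higher level comparable to that of Batf2.

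Batf (chr12:85686669-85709087, plus strand), the founding member, known for its part in T helper 17 cells, was at 13.7, 14.6, 14.2 and 14.8 CPM in WT TAMs and at 11.0, 10.0, 11.9 and 10.9 CPM in miR-21-/- TAMs. No library of either group reached the other. The means were 14.3 ± 0.496 and 11.0 ± 0.788 CPM, and the log2 fold change of -0.36 (SE 0.072, 95% interval -0.52 to -0.20, limma adjusted p = 0.00423) was under the fold limit. The 10 T cell markers summed to 27.4 to 47.5 CPM in the WT libraries and 12.7 to 46.7 CPM in the others. Of these 5 had a positive and 5 a negative log2 fold change. Cd4 passed as lower (16.6 ± 10.0 and 2.19 ± 1.15 CPM, WT first) and made up 5.93 to 30.0 CPM of the WT sums. Cd8a was at 1.92 ± 0.413 and 6.71 ± 3.66 CPM without overlap. Cd3e was at 2.20 ± 0.283 and 3.22 ± 2.02 CPM (limma adjusted p = 0.545). The part of T cells in the Batf difference was not tested.

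Batf3 (chr1:191097847-191108945, plus strand), needed for the cross-presenting class of conventional dendritic cells, had the lowest CPM of the members in every library. It was at 3.71, 7.79, 8.06 and 11.5 CPM in WT TAMs and at 6.34, 5.46, 5.84 and 7.44 CPM in miR-21-/- TAMs. The WT libraries spanned the whole miR-21-/- range, and the log2 fold change was -0.19 (SE 0.25, 95% interval -0.74 to 0.35, limma adjusted p = 0.568). Defining markers of those dendritic cells were present at a low level: Xcr1 at 1.73 to 7.05 CPM against 3.32 to 20.7 CPM, WT first, and Clec9a at 2.30 to 2.74 against 4.18 to 14.0 CPM. Of the 10 dendritic cell markers 6 had a negative log2 fold change, among them Wdfy4 (272 ± 13.5 and 194 ± 20.3 CPM, WT first) and Flt3 (1.69 ± 0.566 and 0.924 ± 0.509 CPM), and 1, Naaa, passed the threshold as higher (149.7 ± 18.6 and 330.2 ± 13.3 CPM). The part of these cells in the Batf3 level was not tested.

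**Figure D2:**
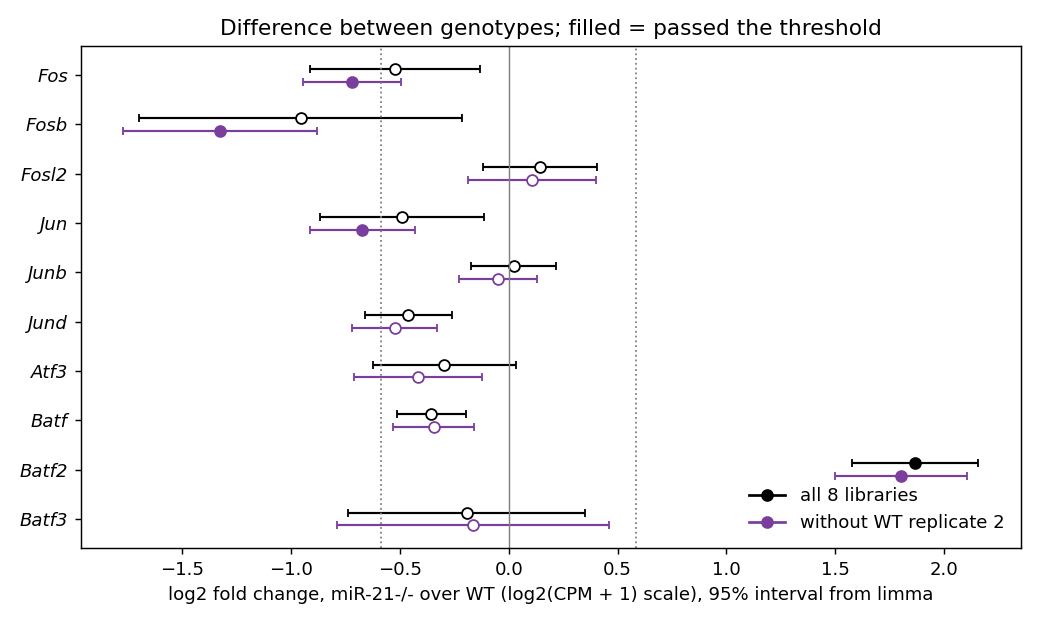
Log2 fold change of miR-21-/- over WT (log2(CPM + 1) scale) with its 95% interval from limma, for all 8 libraries (black) and without WT replicate 2 (purple), with filled points past the threshold and dotted lines at the fold limit of 1.5. Batf2 is filled in both fits, whereas Fos, Fosb and Jun are filled only without WT replicate 2.

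Per length, the order of the members was close to the same in both genotypes apart from Batf2 and Fosb. CPM per kb of exon was highest for Fos (258 in WT and 174 in miR-21-/- TAMs), followed by Junb (130 and 132), Jun (119 and 83.3), Jund (67.6 and 48.9) and Atf3 (37.4 and 29.8). Batf2 had the lowest mean in WT TAMs, at 4.37 CPM per kb, and in miR-21-/- TAMs, at 16.9, it stood above Fosb (23.8 in WT and 10.9 in miR-21-/-), Batf (10.2 and 7.81) and Batf3 (4.86 and 3.93). Fosl2 was at 20.9 and 23.0 CPM per kb. In WT TAMs the ranges of neighbours in this order overlapped for Junb and Jun, Atf3 and Fosb, Fosb and Fosl2, and Batf3 and Batf2. In miR-21-/- TAMs only Atf3 and Fosl2 overlapped as neighbours.

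Summed by family on the same scale, FOS genes held 39.5% to 47.1% of the total of the 10 members in WT libraries and 38.7% to 39.7% in miR-21-/- libraries. JUN genes held 43.4% to 50.8% and 48.8% to 50.1%, and the BATF genes 2.35% to 3.86% and 5.0% to 5.78%. The BATF share did not overlap between genotypes, and the FOS and JUN shares overlapped. Of the BATF genes only Batf2 had a higher mean in miR-21-/- TAMs (4.37 and 16.9 CPM per kb, WT first). Batf (10.2 and 7.81) and Batf3 (4.86 and 3.93) had lower means. The mean sums of the FOS genes (302 and 208) and of the JUN genes (317 and 264), which enter the total, were also lower.

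Replicates of Fosb, Batf3, Fos, Jun and Atf3 had the widest spread of the members in WT TAMs. The SD of log2(CPM + 1) over the 4 WT libraries was 0.42 for Fos, 0.83 for Fosb, 0.38 for Jun and 0.34 for Atf3, against a median of 0.13 over all genes tested. Each of these was larger than in over 96% of the 1000 tested genes nearest in level (96.9%, 99.9%, 96.3% and 96.8%). Over the miR-21-/- libraries the SDs were 0.12, 0.21, 0.18 and 0.15, against a median of 0.12, larger than in 70.8%, 93.7%, 88.7% and 82.2% of the genes nearest in level. Junb, although an immediate-early gene, and Jund had SDs of 0.16 in WT and 0.12 and 0.14 in miR-21-/- TAMs. Batf3 also spread in WT TAMs, with an SD of 0.59 (98.4% of the genes nearest in level had less) against 0.17, where WT replicate 1 was the low library. Batf was the tightest member, with an SD of 0.047 in WT and 0.095 in miR-21-/- TAMs. These SDs each rest on 4 libraries, and their difference between genotypes was not tested.

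**Figure D3:**
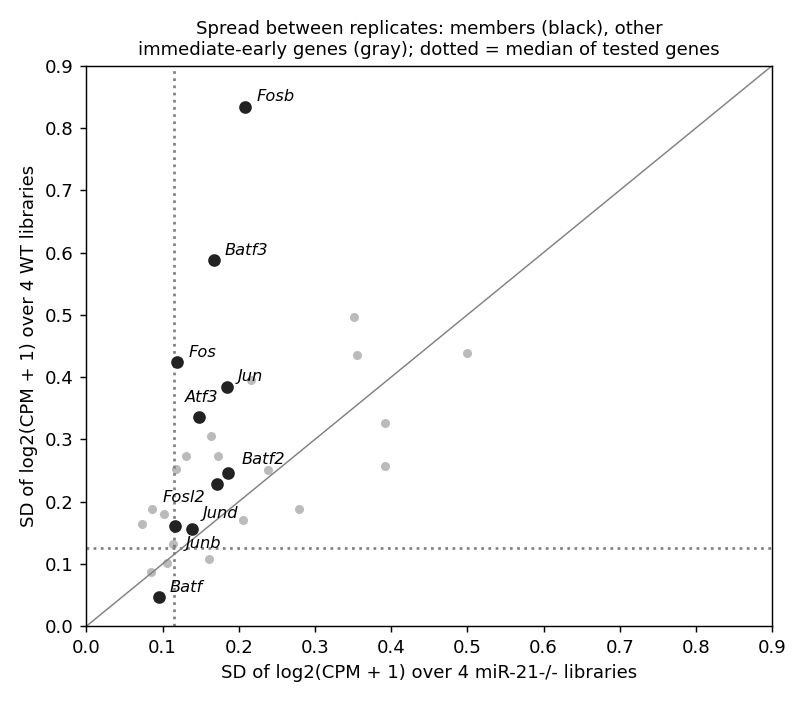
SD of log2(CPM + 1) over the 4 miR-21-/- libraries (x axis) and the 4 WT libraries (y axis) for the 10 members (black, named) and 20 other immediate-early genes (gray), with the line of equal SD and dotted lines at the medians of all genes tested. Fos, Fosb, Jun, Atf3 and Batf3 lie well above the line, and Batf is the one member below it.

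Leaving out WT replicate 2 lowered the median SD of Fos, Fosb, Jun, Junb and Atf3 over both genotypes from 0.30 to 0.167. This median does not describe each gene. For Atf3 the deviation from the WT mean was -0.36 in WT replicate 2 and 0.40 in WT replicate 4. For Batf3 the deviation of WT replicate 2 was 0.088. WT replicate 2 was the lowest WT library for 6 of the 10 members: Fos, Fosb, Jun, Junb, Jund and Atf3. It was also the lowest for 15 of 20 other immediate-early genes and 7 of 11 heat shock genes known to respond to tissue dissociation. It was the lowest WT library for 17.5% of all genes tested. The margin differed among those heat shock genes. Hspa1a was at 367 CPM in WT replicate 2 and 626 to 683 CPM in the other WT libraries, and Hspd1 at 119.5 and 120.8 to 125.7 CPM. In the miR-21-/- group, replicate 1 was the highest library for 7 of 10 members: Fos, Fosb, Fosl2, Jun, Junb, Jund and Batf2. The share of all genes highest in that library was not counted, so this number has no background beside it.

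Fos and Jun libraries shared much of their deviation from the genotype means with Fosb and Jund. As deviations from the genotype mean over the 8 libraries, Fos had a Pearson r of 0.951 with Fosb, 0.922 with Jun, 0.841 with Jund, 0.808 with Atf3 and 0.795 with Junb. With Batf2 it was 0.690, with Batf3 0.224, with Fosl2 0.196 and with Batf 0.0096. Pairs without Fos were not all as close: Atf3 had an r of 0.342 with Junb and 0.559 with Jund. Outside the members, Fos had an r of 0.970 with Egr1, 0.960 with Zfp36 and 0.938 with Ier2, all immediate-early genes, and an r of at least 0.8 with 10 of the 20 on that list, against 0.989% of all genes tested. Among the heat shock genes an r of at least 0.8 was reached by 3 of 11: Hspa1a (0.933) and Hspa1b (0.929), both encoding the inducible HSP70, and Dnajb1 (0.903), its cochaperone. The median r with Fos was 0.14 over the 11 heat shock genes and -0.069 over all genes tested. These values describe 8 libraries, and points of 1 library share its depth and handling. WT replicate 2 had the largest deviation of Fos (-0.59), and the r values were not recomputed without that library.

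**Figure D4:**
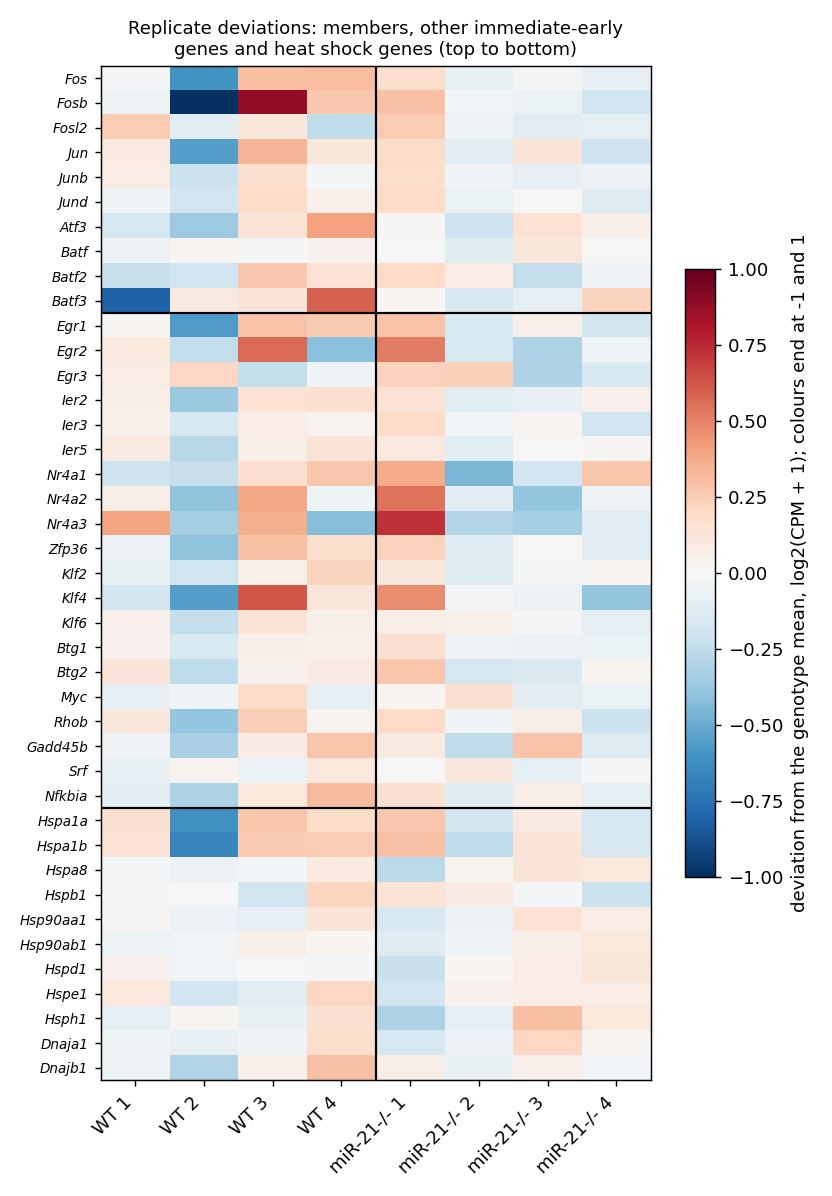
Deviation of each library from its genotype mean (log2(CPM + 1), blue below and red above, colours ending at -1 and 1) for the 10 members, 20 other immediate-early genes and 11 heat shock genes, from top to bottom, with WT libraries on the left. The WT 2 column is blue for Fos, Fosb, Jun, Egr1, Zfp36, Hspa1a and Hspa1b, and pale for Batf and most other heat shock genes.

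Fos, Fosb and Jun passed the threshold in 1 fit, that without WT replicate 2, and their adjusted p varied with the libraries and settings used. Without WT replicate 2, Fos had a log2 fold change of -0.72 (limma adjusted p = 0.00143), Fosb of -1.33 (0.00195) and Jun of -0.67 (0.00267), all past the threshold, and 4 of 10 members passed against 4.95% of all genes. Over the 8 fits without 1 library the adjusted p stayed at 0.05 or less in 2 for Fos, 1 for Fosb and 2 for Jun, and it was highest without WT replicate 3 (0.111, 0.107 and 0.121). Without WT replicate 1 it was 0.0723, 0.0787 and 0.0953, without WT replicate 4 0.0909, 0.0931 and 0.0880, and without miR-21-/- replicate 2, 3 or 4 between 0.0639 and 0.109. Without miR-21-/- replicate 1 it was 0.0486, 0.0574 and 0.0499. Over the 9 other settings the adjusted p was at 0.05 or less in 5 for Fos, 4 for Fosb and 5 for Jun. The replicate block gave 0.030, 0.037 and 0.019. The eBayes fit without trend gave 0.0577, 0.0646 and 0.0640, and rescaling by the median of ratios gave 0.121, 0.0868 and 0.138. There is no label by which WT replicate 2 could be set aside, so the values over all 8 libraries stand as the main ones.

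Markers of other cells also differed between libraries, and not in 1 order. The 6 fibroblast markers, Col1a1, Col1a2, Col3a1, Dcn, Pdgfra and 1 other, summed to 93.1, 60.7, 84.5 and 137 CPM in WT replicates 1 to 4 and to 10.1, 44.1, 14.6 and 11.1 CPM in miR-21-/- TAMs. All 5 that were tested were lower, 3 of them past the threshold. WT replicate 2 had the lowest WT sum and miR-21-/- replicate 1, the highest of its group for Fos, Fosb and Jun, the lowest sum of all. Neutrophil markers, 7 genes led by S100a9, summed to 822 to 1236 CPM in WT libraries against 607 to 789 CPM, and 6 of 7 were lower and 1, Mmp8, passed. WT replicate 2, at 1125 CPM, had the neutrophil sum next to the highest. Tumor epithelial markers summed to 19.9 to 26.3 and 13.7 to 18.4 CPM, with WT replicate 2 the highest, B cell markers to 11.8 to 18.0 and 3.87 to 12.4 CPM, where Cd79b, the 1 gene of that list tested, passed as lower (12.7 ± 2.80 and 4.03 ± 1.15 CPM), and NK cell markers to 1.31 to 4.30 and 1.35 to 4.30 CPM. The part of these cells, and of cell handling, in the levels of Fos, Fosb and Jun was not tested.

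Of the partners with which BATF and AP-1 proteins bind DNA, Irf1 was higher and Nfatc1 lower in miR-21-/- TAMs. Irf1, the interferon-induced factor that pairs with BATF2, was at 111, 103, 126 and 144 CPM in WT TAMs and 447, 376, 327 and 353 CPM in miR-21-/- TAMs, which do not overlap (log2 fold change 1.63, SE 0.12, limma adjusted p = 1.61e-05). Irf8, the partner of BATF3 in dendritic cells, was at 178 ± 12.4 and 259 ± 6.72 CPM, with no overlap and a log2 fold change of 0.54 under the fold limit. Irf4, the partner of BATF in T cells, was at 3.91 ± 1.33 and 2.00 ± 0.574 CPM (adjusted p = 0.0286 by limma). Nfatc1, the calcium-dependent factor that joins AP-1 on composite sites, fell from 110 ± 6.71 to 64.7 ± 2.41 CPM (-0.76, adjusted p = 1.80e-05 by limma). The calls of Irf1 and Nfatc1 held in all 18 fits.

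Of 20 other bZIP factors tested, 1 passed as higher and 1 as lower, and the median log2 fold change was -0.065. Crem, a cyclic AMP responsive factor, rose from 16.2 ± 2.10 to 30.3 ± 3.35 CPM (0.87, limma adjusted p = 0.000269). Cebpa, a myeloid differentiation factor, was lower, at 71.2 ± 10.7 and 45.8 ± 4.47 CPM (-0.62, limma adjusted p = 0.00195), a call that was lost in 5 of 9 other settings and without WT replicate 2 or 3 or miR-21-/- replicate 3 or 4 (adjusted p 0.00577 to 0.00751). Fosl1, the FOS gene that encodes FRA-1, was low, at 9.09 ± 1.00 and 6.31 ± 1.62 CPM (limma adjusted p = 0.0283).

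Upstream of AP-1, 16 genes of the MAP kinase cascade were tested and 1 passed the threshold, as lower. Map2k6, which activates p38, fell from 2.97 ± 0.340 to 1.35 ± 0.189 CPM (-0.75, limma adjusted p = 0.000672), a call lost at a pseudocount of 10 and without the filter on low values. Mapk14, p38α itself, was at 158 ± 8.93 and 114 ± 4.85 CPM (-0.46, limma adjusted p = 0.000328) and Map2k3, which also activates p38, at 50.2 ± 3.93 and 70.1 ± 4.33 CPM (0.47, limma adjusted p = 0.000728), both without overlap and under the fold limit. Of 9 MAP kinase phosphatases tested, 1 passed, as higher. Dusp10 was at 5.30 ± 1.08 and 8.76 ± 0.917 CPM (0.64, limma adjusted p = 0.00433), and its call was kept only without WT replicate 4, being lost without any one of the other 7 libraries (adjusted p 0.00759 to 0.0151) and in 3 of 9 other settings.

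By limma 0 of the 20 other immediate-early genes passed the threshold, and 10 had an unadjusted p under 0.05, 4 higher and 6 lower. Of all genes 34.1% were lower at that unadjusted limit. With an adjusted p of 0.05 or less and no fold limit 1 was higher, against 9.49% of all genes, and 6 were lower, against 26.5%. The median log2 fold change of the 20 genes was -0.029. The lowest log2 fold change among them, -1.13, was that of Klf4, at 44.6 ± 16.0 and 19.4 ± 5.17 CPM (limma adjusted p = 0.00535). Of the heat shock genes, all 11 had a negative log2 fold change (median -0.38), against 66.8% of all genes, 9 with an adjusted p of 0.05 or less, against 26.5%, and 1 past the threshold. That was Hsph1, at 66.1 ± 5.52 and 42.4 ± 7.81 CPM (-0.64, limma adjusted p = 0.00261), a call that held without miR-21-/- replicate 3 and was lost without any one of the other 7 libraries, by the fold limit or the adjusted p (0.00410 to 0.00935). It was also lost in 6 of 9 other settings, quantile normalization and median of ratios among them. Hspa1a, whose libraries followed Fos, was at 579 ± 144 and 379 ± 59.8 CPM (-0.58, limma adjusted p = 0.0349).

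Of 16 tested genes with textbook AP-1 sites, 5 passed, each of them higher in miR-21-/- TAMs, against 2.89% of all genes. A positive log2 fold change was found in 14 of them, against 33.2% of all genes, with a median of 0.45 against -0.10. Of the 16, 7 had a limma adjusted p above 0.05. The list was chosen with earlier results of these data known. These counts therefore describe the list only, and AP-1 activity was not tested. Mmp13, a collagenase, rose from 380 ± 64.4 to 877 ± 145 CPM (1.21, limma adjusted p = 0.000279). Vegfa, the vascular growth factor, rose from 49.6 ± 13.5 to 99.98 ± 8.99 CPM (1.03, limma adjusted p = 0.00102) and Tnf, the inflammatory cytokine, from 31.3 ± 6.67 to 61.5 ± 9.29 CPM (0.97, limma adjusted p = 0.00115). The calls of Vegfa and Tnf were lost without the filter on low values. Plaur and Ptgs2 were the other 2 genes that passed, and as background such genes also answer to other factors. Of 5 inhibitors and coactivators of AP-1, 1 passed: Pdcd4, an inhibitor of translation and of AP-1 activity and a known miR-21 target, fell from 13.6 ± 1.15 to 7.51 ± 0.991 CPM (-0.79, limma adjusted p = 0.000377), with 1 8-base seed site in its 3′ UTR. Its call was lost at a pseudocount of 10 (-0.43).

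For each member the 3 genes outside the family with the highest Pearson r of log2(CPM + 1) over the 8 libraries were listed as a description. For Batf2 they were Lrrc8c (0.998), Socs1 (0.998) and Slamf8 (0.997), which like it separated by genotype: Socs1, the interferon-induced inhibitor of JAK kinases, had means of 5.18 and 26.2 CPM, WT first, and Slamf8 of 35.1 and 198.9 CPM. For Fos they were Egr1 (0.969), Hspa1a (0.966) and Hspa1b (0.952), and for Jun Hspa1a (0.988), Rhob (0.982) and Hspa1b (0.971). Jund was most like Klf4 (0.991), Itpkc and Spr. Fosb was most like Agk (0.956), Cdh11 (0.954) and Gm29808, of which Cdh11, a cadherin of mesenchymal cells, was at 0.241 to 2.82 CPM. Fosl2 was most like Nr4a3 (0.945), Sfxn5 and Zswim4. Batf was most like Ccnl2 (0.990), Entpd3 and Gdpd3, and Batf3 most like Cpt1a (0.967), Cchcr1 and Usp6nl. For Junb they were Cmc4 (0.952), Prdm16 and Ighg2c, and for Atf3 a group of 3 gene copies with identical values, Gm13691, Gm13693 and Gm13694 (0.974). Cmc4 was at 1.46 to 1.85 CPM and the Gm copies at 1.17 to 1.38 CPM, near the filter of 1 CPM. Each r rests on 8 libraries and takes in the difference between genotypes.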

How the data were processed

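The authors deposited 1 CPM value per gene and library, with 0.0001 as the lowest value, made per the labels with STAR and Partek 7.0 on mm10. The counting rule, annotation and strand are not given in the sources used here. Whole reads were not recovered: 75.6% to 76.5% of values up to 20 reads lay within 0.05 of a whole read. Precision is therefore set by 4 libraries per genotype. Coordinates are those of the table, on GRCm38, and lengths and 3′ UTRs come from GENCODE vM21. Sequences come from RefSeq.

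Values were taken as log2(CPM + 1) and fitted with limma 3.58.1 (R 4.3.3, lmFit, eBayes with trend) keeping 13850 genes whose mean reached 1 CPM after each column was rescaled to its own total. The fit was tested on simulated data. Figures used matplotlib 3.10.9. Other settings tried were pseudocounts of 0.1 and 10, filters of 0 and 5, quantile normalization, median of ratios, eBayes without trend, arrayWeights, a replicate block and leaving out each library.

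Members and gene lists were chosen with earlier results of these data known. Named are all members, up to 3 genes past the threshold each way per list, the 3 genes most like each member, and, chosen after their values were seen, Irf4, Irf8, Fosl1, Mapk14, Map2k3, Klf4, Hspa1a, Plaur, Ptgs2, Zfp36, Ier2, Dnajb1 and single cell type markers. A further gene that this rule would name is not reported here.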

Additional observations from a re-analysis of the deposited data

Results flagged for a closer look

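In the miR-21-/- group 2 of the members had 1 library apart from the other 3, as measured by the gap to the nearest library over the range of the group. Fosl2 was at 264.6 CPM in miR-21-/- replicate 1, with a gap of 0.865 of the range, and Junb at 341.9 CPM in the same library, with a gap of 0.830. Over the 20 groups examined (10 members in 2 genotypes) chance flags about 1 in 20. Neither gene passed the threshold, and the cause was not tested.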

How the results depend on the processing

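Limits: 4 libraries per genotype set the precision. The inferred depth left each member at least about 111 reads per library, the counting strand was not given, and handling of single libraries could not be checked. The count test planned for recovered whole reads was not run, since whole reads were not recovered.

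The count of members past the threshold was 1 and stayed 1 in all settings except without WT replicate 2 (range over left-out libraries 1 to 4) and with an adjusted p of 0.05 and no fold limit, where it was 6. That wider count was 3 to 7 over the other settings and left-out libraries. Over all genes, 986 passed, against 452 at a pseudocount of 10, 515 without a filter and 4982 at the wider limit. For the genes of the other lists, cell markers left out, settings added after seeing the data, 14 passed, against 9, 6 and 59 in the same order. The share of higher genes among those that passed went from 40.6% to 60.3% with the median of ratios and 59.3% with quantile normalization. Junb changed sign with quantile normalization (-0.027) and without WT replicate 2 (-0.049) or miR-21-/- replicate 1 (-0.034), with a range of -0.049 to 0.077 over left-out libraries, and Batf3 without WT replicate 4 (0.0037), with a range of -0.46 to 0.0037. The median SD of Fos, Fosb, Jun, Junb and Atf3 over both genotypes was 0.30, and 0.167 without WT replicate 2 (range over left-out libraries 0.167 to 0.327). Of all values recomputed, members gave 163 that kept direction and side of the threshold, 3 that newly passed it and 4 that changed sign, and the other genes named 166 and 37 that no longer passed. The cause of these changes was not tested beyond the removal of the library or genes itself.

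Whether same-numbered libraries were handled together is not given in the sources used here. Their deviations correlated at 0.083, -0.11, -0.14 and 0.22, and only number 4 was the best match of its own number. These correlations cannot decide whether the libraries were paired. With the replicate number as a block, 1 member, 922 of all genes and 13 genes of the other lists passed. The limma adjusted p of Atf3 was 0.041 with that block and 0.141 without it.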
